A study of Rattus norvegicus with 18 samples.

Results

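The comparison described here is the one between granddaughters of males fed a high-fat diet and granddaughters of males fed chow, when the granddaughters themselves ate a high-fat diet. It was selected by the diet labels alone. Its differences use 9 of the 18 arrays of the series, while the spread of each gene was estimated from all 18. All animals were adult Sprague-Dawley rat females of filial generation 2, and the tissue was the extensor digitorum longus (EDL), a fast hindlimb muscle. Group names give the grandpaternal diet first and the female's own diet after it. The HFD/HFD group held 4 females and the chow/HFD group held 5. Both had eaten the high-fat diet, with 42/45% of its energy from fat, for 12 weeks before the muscle was taken. The HFD/chow group (4 females) and the chow/chow group (5 females) ate chow and give the same grandpaternal contrast without the high-fat diet. Each array carried RNA of a separate animal, so the spread between arrays includes the spread between animals. The labels do not give how many grandfathers founded each lineage, nor which females were sisters, and relatives counted as independent animals could make the p-values too small.

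The diet of a male can reach his descendants through sperm, seminal fluid or the behaviour of his mates, and small RNAs, DNA methylation and retained histones of sperm are the carriers most often studied. Skeletal muscle takes up much of the glucose cleared after a meal, and on a fatty diet it burns more fatty acid through mitochondrial and peroxisomal oxidation under the control of the PPAR receptors. The EDL is built mainly of fast fibres, which rely on glycolysis and glycogen more than the slow fibres of postural muscles do.

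The values were microarray intensities of 20917 probe sets (groups of probes read together for a transcript), taken as log2(intensity + 16) and quantile-normalized. A level or difference below is on this scale, on which 1 unit is a doubling of intensity for a bright probe set and more than a doubling for a dim one. Each gene was read from its brightest probe set with 1 gene symbol, and 12642 genes bright enough to test remained. The tissue label was borne out by its markers: 10 skeletal muscle markers, among them the creatine kinase Ckm, the fast troponins Tnnt3 and Tnni2 and the parvalbumin gene Pvalb, lay at or above the 99.6th percentile of mean level. In a whole muscle, fewer cells of a type and less RNA per cell cannot be told apart.

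Before scaling, the 2 groups differed in overall brightness. The median deposited intensity of an array was 68.37, 73.78, 67.52 and 73.97 in HFD/HFD females, against 62.66, 65.60, 66.45, 56.98 and 55.02 in chow/HFD females. Every HFD/HFD array was therefore brighter than every chow/HFD array. Without scaling, the median gene was 0.18 log2 higher in HFD/HFD females, 90.2% of genes were higher, and 1689 genes passed an adjusted p of 0.05, of which 1686 were higher and 3 lower. Between HFD/chow and chow/chow females, also without scaling, the median gene differed by -0.056 log2 and 30.8% of genes were higher. The brightness gap was thus not seen in the chow-fed females of the same lineages. After quantile normalization the median gene differed by 0.0011 and 50.4% of genes were higher. All differences below are relative to that common level. Whether the brightness came from the muscle or from the arrays was not tested. The sample titles name array wells in columns 5, 7 and 9. Column 5 held 1 HFD/HFD and 2 chow/HFD arrays, column 7 held 1 and 3, and column 9 held 2 and 0. In the titles of all 18 arrays 3 wells occur more than once, each time under both grandpaternal diets, and no label says what the wells stand for. A plate or run given to 1 lineage and the diet of the grandfather cannot be told apart.

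**Figure D1:**
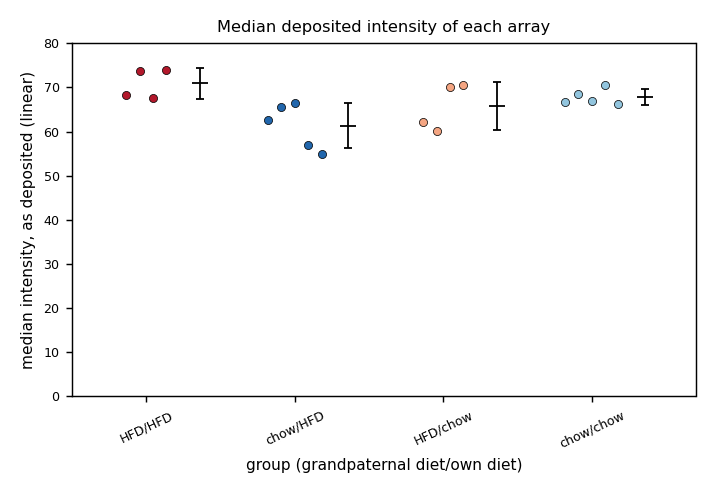
Median deposited intensity of each array (vertical axis, linear, as deposited) by group (horizontal axis, grandpaternal diet/own diet). Points are arrays, and the bar beside them is the mean with its SD. The 4 HFD/HFD arrays (67.52 to 73.97) lie above the 5 chow/HFD arrays (55.02 to 66.45).

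No gene passed the test between HFD/HFD and chow/HFD females: 0 of 12642 genes (0%) had a limma adjusted p under 0.05, and the smallest adjusted p was 0.0537. At an unadjusted p under 0.05 there were 1682 genes, 844 higher (6.68% of the genes tested) and 838 lower (6.63%), where 632.1 are expected by chance. That count was 880 when each array's deposited median entered the model as a covariate and 1184 when the 2 dimmest arrays were left out. At an adjusted p under 0.10, used only as a description, there were 29 higher genes (0.229%) and 20 lower genes (0.158%). In 300 genes (2.37%) every HFD/HFD female was above every chow/HFD female, and in 296 genes (2.34%) every one was below. The differences were small, with a standard deviation of 0.14 log2 over genes and a median standard error of 0.090. Only 37 genes were higher and 17 lower by more than 0.5 log2. Across genes, which are not independent replicates, the signed difference had a Spearman's rho of 0.014 with the span of the gene (12555 genes) and of -0.012 with its mean level (12642 genes).

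**Figure D2:**
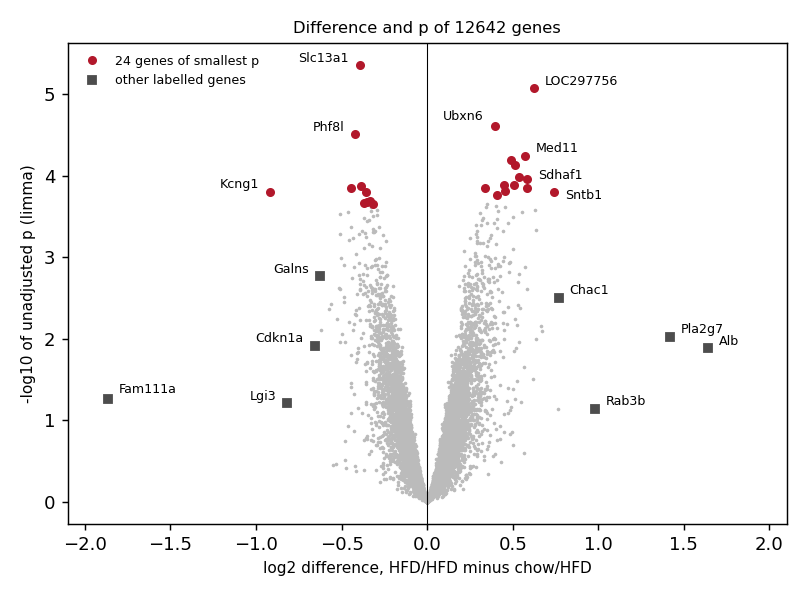
Log2 difference, HFD/HFD minus chow/HFD (horizontal axis), against -log10 of the unadjusted limma p (vertical axis) for 12642 genes (grey points). Red circles are the 24 genes of smallest p and dark squares are the genes of largest difference. The circles keep to differences between -0.92 and 0.74, while the largest differences, Fam111a at -1.87 and Alb at 1.64, have larger p-values.

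Differences that passed were found mostly outside the brightest probe set of each gene. When all 20917 probe sets of the table were tested, a choice made after the data were seen, 17 passed an adjusted p of 0.05 (0.0813%), with 13 higher and 4 lower in HFD/HFD females. Among the 18197 probe sets with 1 symbol, 10 passed (0.055%). Of the 17, 4 were the probe sets used above for Slc13a1, LOC297756, Ubxn6 and Phf8l. Another 5 were the dimmer probe set of a named gene, 2 were the only probe set of a gene too dim to be tested above, 3 had several gene symbols and 3 had no gene entry. In all 17 the groups did not overlap, which follows largely from choosing them by p on the same arrays. Between HFD/chow and chow/chow females 15 differed in the same direction. The shares over all 20917 probe sets were not counted. Over the 12642 genes, 2.37% were higher and 2.34% lower without overlap, and 58.1% had the same direction in chow-fed females.

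The largest of them was probe set 10747775, which has no gene entry in the probe table used here. It read 10.79, 11.19, 11.24 and 11.54 in HFD/HFD females, against 6.99, 7.05, 7.03, 7.41 and 7.34 in chow/HFD females. The lowest HFD/HFD female was thus over 3 log2 units above the highest chow/HFD female. The probe set rose by 4.03 log2 (SE 0.30, 16.3-fold, limma adjusted p = 6.27e-07). In chow-fed females it read 9.08, 10.63, 11.20 and 10.77 with HFD grandfathers, against 7.09, 6.97, 7.51, 8.10 and 7.10 with chow grandfathers, and it rose by 3.07 log2 (SE 0.30, adjusted p = 6.70e-05). The difference was 4.04 log2 in well column 5 and 4.40 in column 7. It passed under all 19 other settings tried, where the difference ran from 3.64 to 4.22 log2. What transcript it reads is not known here.

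The Kruppel-like factor gene Klf9, a glucocorticoid-responsive transcription factor, was split between its 2 probe sets. Its dimmer probe set, 10729348, read 6.36, 6.81, 6.42 and 6.57 in HFD/HFD females, against 5.00, 4.72, 4.69, 4.64 and 4.54 in chow/HFD females. It rose by 1.82 log2 (SE 0.21, adjusted p = 0.000398 over all probe sets). Its brighter probe set, 10714413, read 10.62, 10.83, 10.42 and 10.62 in HFD/HFD females, against 10.51, 10.42, 10.64, 10.12 and 10.50 in chow/HFD females. There the groups overlapped, and the difference was 0.19 log2 (SE 0.11, adjusted p = 0.537). The same split was seen for Slain2, which encodes a microtubule plus-end protein. Its dimmer probe set, 10772405, rose by 1.50 log2 (SE 0.25, adjusted p = 0.0169), with 7.73, 8.22, 8.48 and 8.45 in HFD/HFD females against 6.27, 6.75, 6.96, 6.86 and 6.74 in chow/HFD females. Its brighter probe set, 10776586, differed by 0.046 log2 (SE 0.062, adjusted p = 0.816). A change in the dimmer probe set is therefore not a change in the gene as the brighter one reads it, and which of them follows the main transcript was not tested.

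Stt3b, a catalytic subunit of the enzyme that attaches N-linked glycans, rose by 0.68 log2 (SE 0.11, adjusted p = 0.0141) in its dimmer probe set 10914039 and differed by -0.063 in the brighter one. Cox7b, a subunit of cytochrome c oxidase, rose by 0.60 log2 (SE 0.097, adjusted p = 0.0141) in its dimmer probe set 10938946 and differed by 0.014 in the brighter one. Mapkbp1 rose by 0.50 log2 in its dimmer probe set (adjusted p = 0.0216) and differed by -0.13 in the brighter one. Gpr179 and Usp29, each read by a single probe set with a mean level under the limit of 5.28, rose by 0.40 and 0.57 log2 (adjusted p = 0.0320 and 0.0437). Among the probe sets without a gene entry, 10934517 rose by 1.62 log2 (SE 0.24, adjusted p = 0.0103) and 10705870 by 1.07 log2 (SE 0.13, adjusted p = 0.000487). Of the probe sets with several symbols, from which no single gene can be read, 10831298 (Hspa1b and Hspa1a) rose by 0.97 log2, and 10767692 and 10920994 fell by 0.44 and 0.43 log2. These dim probe sets read between 4.2 and 6.8 in HFD-fed females in most cases, near the floor of 4 that the offset sets, so their differences understate the fold.

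In chow-fed females 10 of the 17 probe sets differed in the same direction at an unadjusted p under 0.05, against 740 of the 12642 genes tested. The share over all probe sets was not counted, and both contrasts use the same estimate of spread. Among the chow-fed females 1 array stood apart. In the HFD/chow group, replicate 1 was the lowest of its 4 females for 10747775, 10934517, 10705870, Klf9 probe set 10729348, Slain2 probe set 10772405, Stt3b probe set 10914039 and Usp29. For the Klf9 probe set it read 5.10, against 6.37, 6.53 and 6.24 in the other HFD/chow females and 4.74, 4.82, 5.02, 5.36 and 4.70 in chow/chow females. The whole-table test of the chow-fed contrast called 2 probe sets, 10747775 and that of Slc17a5. The test of whether the grandpaternal difference depended on the own diet called 0 of 20917 probe sets (1371 at an unadjusted p under 0.05, among them 11 of the 17). That test contains the HFD-fed difference by which the 17 were chosen. The 11 therefore follow in part from that choice and do not show that the own diet mattered. For 10747775 that difference of differences was 0.96 log2 (SE 0.43, adjusted p = 0.737).

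**Figure D3:**
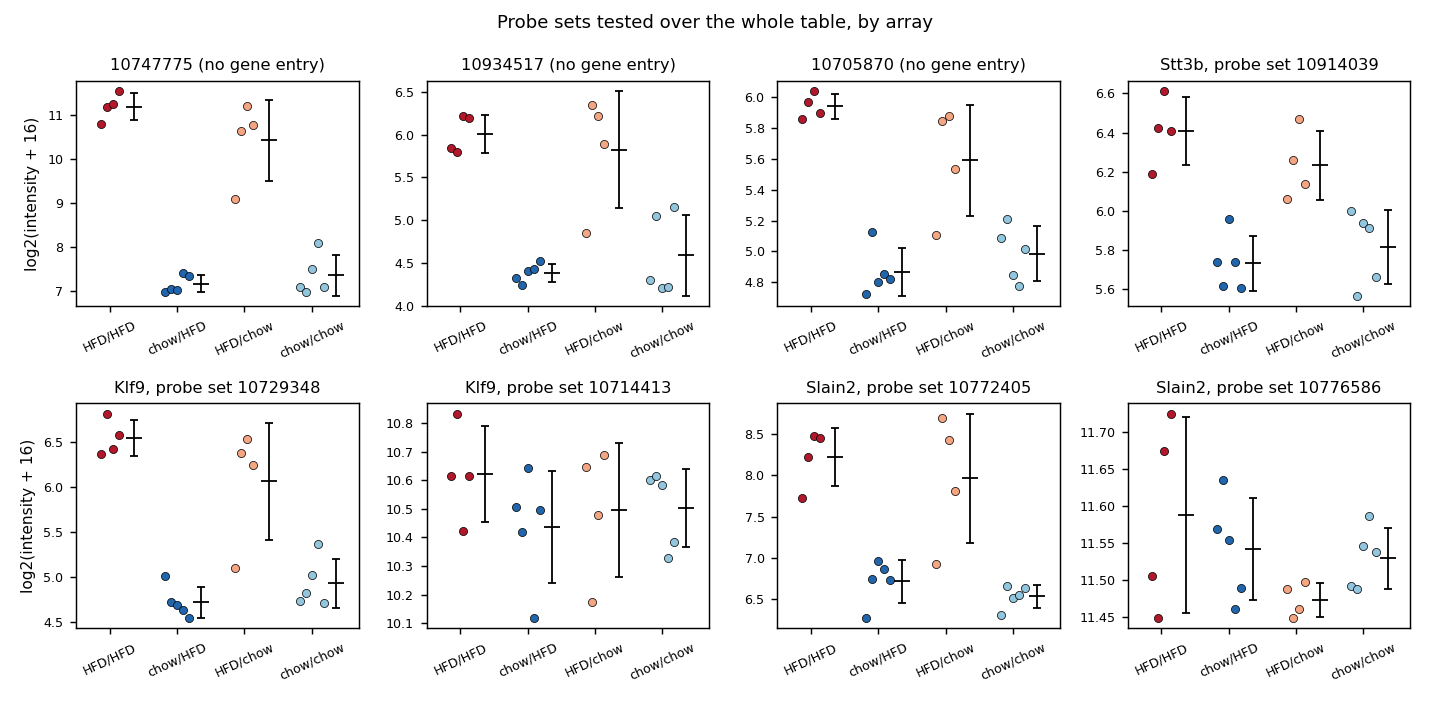
Level, log2(intensity + 16), on each array (vertical axes, which do not start at 0 and differ between panels) by group (horizontal axes, grandpaternal diet/own diet) for 8 probe sets. Points are arrays, and bars are means with SD. Probe set 10747775 separates both HFD groups from both chow groups, while the brighter probe sets of Klf9 and Slain2 overlap between HFD/HFD and chow/HFD females.

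Among the genes tested, the 24 of smallest p had adjusted p-values from 0.0537 to 0.0990, and none passed. In 22 of them the groups did not overlap, the exceptions being Dpp3 and Exo5. All 24 had the same sign within well column 5, within well column 7 and with the well column as a block. Without overlap any subset of the arrays gives the same sign, so the agreement within columns followed from how the genes were chosen. It is no test of the well column. The 24 are given by their roles.

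Slc13a1, Kcng1 and Atp1a4, which act in membrane transport, were lower in HFD/HFD females. Slc13a1, a sodium-sulphate cotransporter best known from kidney, read 5.35, 5.60, 5.54 and 5.61 in HFD/HFD females, against 5.90, 5.84, 5.92, 5.97 and 5.97 in chow/HFD females. All 4 HFD/HFD females lay below the chow/HFD range, with a difference of -0.39 log2 (SE 0.062, adjusted p = 0.0537). The level is close to the lower limit of the genes tested (5.28), and in the chow-fed females the difference was 0.020. Kcng1, a modifying subunit of voltage-gated potassium channels, read 6.19, 6.59, 6.70 and 7.06 in HFD/HFD females, against 7.79, 7.85, 7.59, 7.12 and 7.43 in chow/HFD females. The groups stood close at their nearest animals, and the mean difference was -0.92 log2 (SE 0.20, adjusted p = 0.0990). Atp1a4, the sodium pump subunit known from sperm, differed by -0.33 log2 (SE 0.073), and other sodium pump subunits of close sequence could share its signal.

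Ubxn6, Gosr2, Ccdc115 and Dpp3, which act in protein handling and membrane traffic, were higher. Ubxn6, a cofactor of the segregase VCP, read 8.27, 8.38, 8.35 and 8.39 in HFD/HFD females, against 8.03, 7.96, 7.87, 7.88 and 8.03 in chow/HFD females. The spread within each group (SD 0.057 and 0.078) was small beside the difference of 0.39 log2 (SE 0.071, adjusted p = 0.0981). Gosr2, a SNARE protein of Golgi vesicles, read 8.86, 8.94, 9.09 and 9.22 in HFD/HFD females, against 8.73, 8.40, 8.57, 8.51 and 8.47 in chow/HFD females. Its difference was 0.49 log2 (SE 0.096, adjusted p = 0.0990). Ccdc115, an assembly factor of the proton pump of lysosomes and Golgi, differed by 0.51 log2 (SE 0.11). It was tight in chow/HFD females, at 8.12 to 8.19, and ran from 8.25 to 8.99 in HFD/HFD females. Dpp3, a cytosolic dipeptidyl peptidase, read 7.58, 7.65, 8.10 and 7.97 in HFD/HFD females, against 7.60, 7.16, 7.28, 7.26 and 7.25 in chow/HFD females. Chow/HFD replicate 1 lay inside the HFD/HFD range, and the difference was 0.52 log2 (SE 0.10).

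Kptn belongs to KICSTOR, the lysosomal complex that restrains mTORC1 when amino acids are scarce. It read 7.87, 8.20, 7.80 and 8.02 in HFD/HFD females, against 7.53, 7.47, 7.55, 7.56 and 7.50 in chow/HFD females. The groups were separate, with a difference of 0.45 log2 (SE 0.094, adjusted p = 0.0990), and HFD/chow females were 0.40 log2 (SE 0.094) above chow/chow females. Sntb1 encodes a syntrophin of the dystrophin complex under the fibre membrane. It read 9.78, 10.12, 10.66 and 10.23 in HFD/HFD females, against 9.66, 9.21, 9.20, 9.68 and 9.52 in chow/HFD females, a difference of 0.74 log2 (SE 0.16, adjusted p = 0.0990). In chow-fed females the difference was -0.27 log2 (SE 0.16). The difference of differences was 1.02 log2 (SE 0.22, adjusted p = 0.546) and did not pass.

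Sdhaf1, which helps to insert iron-sulphur clusters into succinate dehydrogenase, read 9.47, 9.55, 9.32 and 9.30 in HFD/HFD females, against 8.99, 8.83, 9.04, 8.74 and 8.52 in chow/HFD females. Every HFD/HFD female was above the chow/HFD range, by 0.58 log2 on average (SE 0.12, adjusted p = 0.0990). Pon2, a paraoxonase of intracellular membranes, differed by 0.34 log2 (SE 0.071), but its dimmer probe set differed by 0.062. Rasl12, a small Ras-like GTPase, differed by 0.45 log2 (SE 0.097), from 6.59 to 6.86 in HFD/HFD females and from 5.88 to 6.50 in chow/HFD females.

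The genes of transcription and RNA processing among the 24 went both ways. Med11, a subunit of the Mediator complex, read 8.04, 8.02, 8.08 and 8.33 in HFD/HFD females, against 7.72, 7.59, 7.39, 7.62 and 7.42 in chow/HFD females, a difference of 0.57 log2 (SE 0.11). Taf9, a subunit shared by TFIID and SAGA, differed by 0.41 log2 (SE 0.088) in the probe set used and by 0.048 in its other one. Cpsf6, a factor of messenger RNA 3′ end cleavage, differed by -0.35 log2 (SE 0.077), with 8.10, 7.96, 7.89 and 7.98 in HFD/HFD females against 8.19, 8.44, 8.29, 8.28 and 8.45 in chow/HFD females. Phip, a bromodomain protein first described as a partner of insulin receptor substrate 1, read 8.16, 8.22, 8.11 and 8.17 in HFD/HFD females, against 8.47, 8.66, 8.54, 8.47 and 8.61 in chow/HFD females. Those groups were well separated, with a difference of -0.39 log2 (SE 0.081, adjusted p = 0.0990). Wdr12, needed to build the large ribosomal subunit, differed by -0.31 log2 (SE 0.069), and the exonuclease gene Exo5 by -0.37 log2 (SE 0.081).

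The other members of the 24 were the pseudogene LOC297756 (0.62 log2, SE 0.10), the ribosomal protein copies Rpl10al3 (0.53 log2, SE 0.11) and Rpl14l2 (-0.44 log2, SE 0.094), Phf8l (-0.42 log2, SE 0.078), C9h6orf226 (0.59 log2, SE 0.12) and Fam217a (-0.35 log2, SE 0.076). LOC297756 read 6.51, 6.31, 6.21 and 6.24 in HFD/HFD females, against 5.58, 5.80, 5.75, 5.57 and 5.77 in chow/HFD females, with no overlap. The pseudogene and the copies can share signal with their parent genes, so their values are uncertain.

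**Figure D4:**
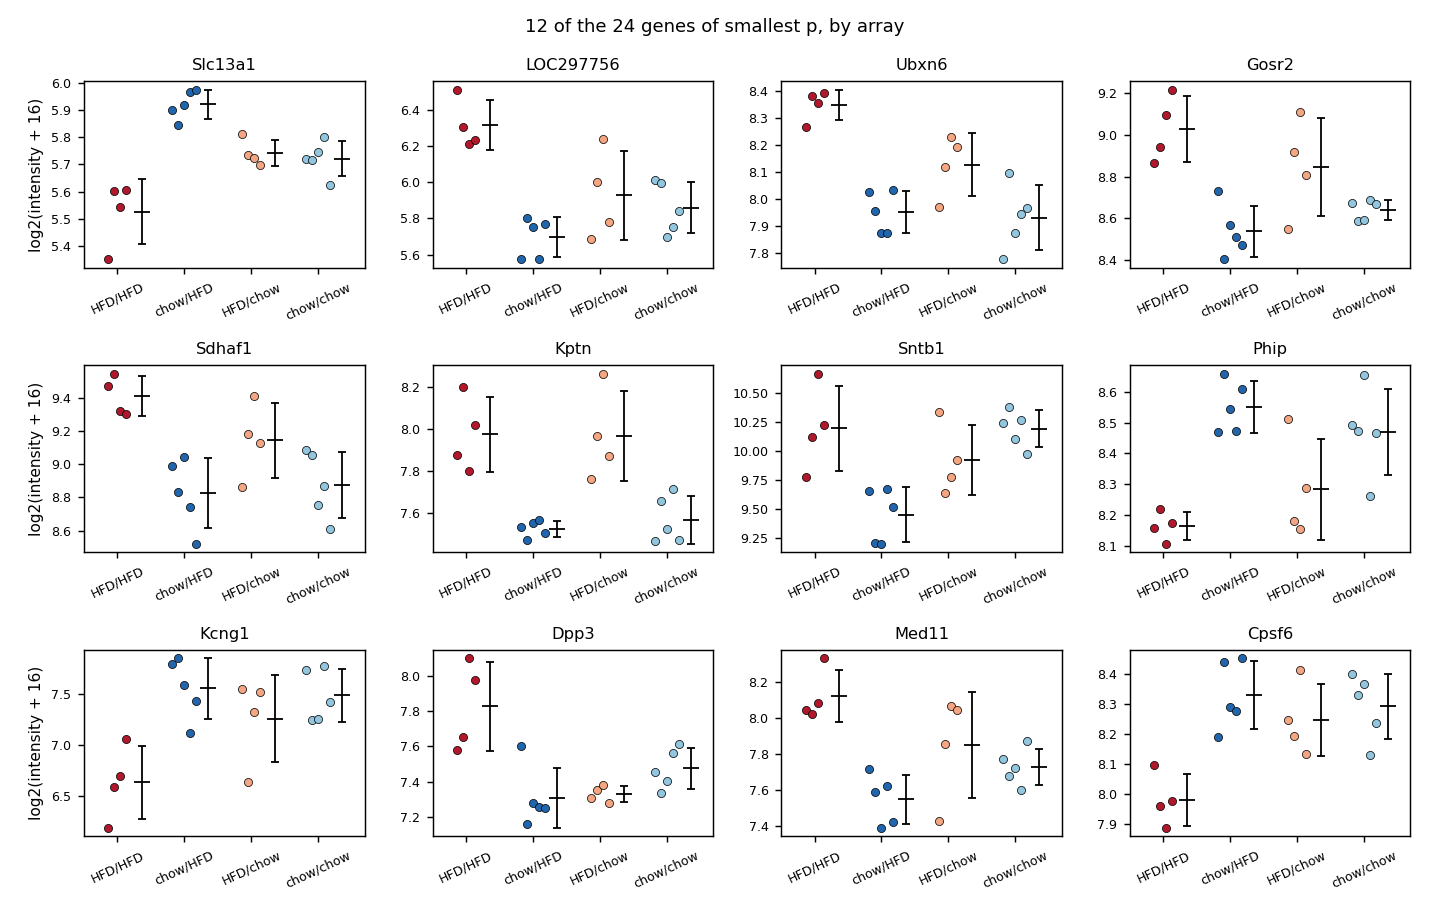
Level, log2(intensity + 16), on each array (vertical axes, which do not start at 0 and differ between panels) by group (horizontal axes, grandpaternal diet/own diet) for 12 of the 24 genes of smallest p. Points are arrays, and bars are means with SD. HFD/HFD and chow/HFD females are separate in 11 panels, and in that of Dpp3 chow/HFD replicate 1 (7.60) lies above the lowest HFD/HFD female (7.58). Kptn is also higher in HFD/chow than in chow/chow females, while Sntb1 is not.

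The largest differences by size came with a wide spread between females. Fam111a, a protease gene, was at 4.36, 4.54 and 4.52 in HFD/HFD replicates 1 to 3 and at 7.86 in replicate 4, against 8.03, 7.88, 7.40, 5.45 and 7.18 in chow/HFD females. Single females thus stood at opposite ends in both groups, and the difference of -1.87 log2 had an SE of 0.91 (adjusted p = 0.388). Alb, the serum albumin of liver, was 6.98, 6.28, 6.85 and 9.87 in HFD/HFD females, against 6.40, 5.88, 5.16, 5.75 and 6.09 in chow/HFD females. Its difference of 1.64 log2 (SE 0.60, adjusted p = 0.239) was 0.85 without HFD/HFD replicate 4. Pla2g7, the lipoprotein-associated phospholipase that macrophages secrete, was 8.27, 7.07, 8.29 and 6.08 in HFD/HFD females, against 6.23, 5.23, 6.34, 6.67 and 5.58 in chow/HFD females. The difference was 1.42 log2 (SE 0.49, adjusted p = 0.211), with replicate 4 inside the chow/HFD range.

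Chac1, an enzyme that breaks down glutathione and a target of the stress factor ATF4, was 9.15, 9.43, 8.82 and 9.23 in HFD/HFD females, against 8.68, 8.16, 8.37, 8.02 and 8.73 in chow/HFD females. These did not overlap, and the difference was 0.77 log2 (SE 0.23, adjusted p = 0.154), but the other Chac1 probe set differed by -0.020. The cell cycle inhibitor Cdkn1a was 7.06, 6.79, 6.44 and 6.75 in HFD/HFD females, against 7.48, 8.0, 7.04, 6.83 and 7.74 in chow/HFD females, a difference of -0.66 log2 (SE 0.24, adjusted p = 0.233). Galns, a lysosomal sulphatase, differed by -0.63 log2 (SE 0.17, adjusted p = 0.142). The remaining ones were Rab3b at 0.98 (SE 0.52), the cytochrome P450 gene Cyp2j4 at 0.76 (SE 0.40) and Lgi3 at -0.82 (SE 0.41), each with overlapping groups.

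The same grandpaternal contrast was measured in chow-fed females, who share no array with the HFD-fed ones. The titles carry animal numbers, whose meaning no label gives. In 8 pairs of 1 HFD-fed and 1 chow-fed female of the same lineage the numbers lay within 3 of each other. The deviations of such a pair from their group means correlated across genes with r from -0.037 to 0.41 (median 0.16), against -0.225 to 0.146 (median -0.037) in the other 33 pairs of the same kind. The differences at the 2 own diets are therefore not shown to be independent. In the chow-fed contrast 1106 genes (8.75%) had an unadjusted p under 0.05 and 1 of 12642 genes passed (0.00791%): Slc17a5, the lysosomal exporter of sialic acid, fell by 0.68 log2 (SE 0.11, adjusted p = 0.0484). That call was lost with offsets of 1 and 64, with the well column as a block, with the array median as a covariate, as deposited, and in 8 of 9 fits that left out 1 array. In HFD-fed females Slc17a5 was 7.57, 7.80, 7.70 and 7.95 with HFD grandfathers, against 8.03, 7.94, 7.93, 7.53 and 7.66 with chow grandfathers. These overlapped, with a difference of -0.064 log2 (SE 0.11). Of the 24 genes above, 18 had the same direction in chow-fed females, against 7342 of all 12642 genes (58.1%). At an unadjusted p under 0.05 there, 8 of the 24 and 740 of all 12642 genes had the same direction. Both contrasts took the spread of each gene from 1 model of all 18 arrays. Genes chosen for a small p tend to have a small SE in both contrasts, so the 8 are not independent support. Of the 1682 genes at an unadjusted p under 0.05 in HFD-fed females, 1165 (69.3%) had the same direction. Across genes the 2 sets of differences had Pearson's r = 0.221 and Spearman's rho = 0.212 over 12642 genes, which share the arrays and their scaling and are not independent. In the direction seen in HFD-fed females, where the 24 were chosen for their small p, their median was 0.45 log2 there and 0.092 in chow-fed females. HFD/chow replicate 1 was the lowest of its group for Med11, Gosr2, Sdhaf1 and Kptn, though not for Pon2 or Dpp3. Without that array the chow-fed contrast had 1564 genes at an unadjusted limma p under 0.05, against 1106 with it. Its part in the smaller median was not tested.

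The test of whether the grandpaternal difference depended on the own diet called 0 of 12642 genes (0%), with 863 at an unadjusted p under 0.05 (6.83%). The 5 genes of smallest p, all at an adjusted p of 0.546, were Slc13a1, Dpp3, Sntb1, Dgkz and C8h3orf62. Dgkz, a kinase that removes diacylglycerol, differed by -0.37 log2 (SE 0.11) in HFD-fed and 0.29 log2 (SE 0.11) in chow-fed females. Its other probe sets differed by 0.30 and -0.086 in HFD-fed females. C8h3orf62 differed by -0.29 log2 (SE 0.083) in HFD-fed and 0.21 log2 (SE 0.083) in chow-fed females.

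Gene lists were read by how many members were higher or lower, beside the shares of all genes at an unadjusted p under 0.05, which were 6.68% higher and 6.63% lower. In none of the 45 lists did a member pass the adjusted threshold, so the counts that follow are a description. With arrays as deposited or centred on their medians, the list median took the other side of the all-gene median in the lists named fatty acid responsive genes, lipid droplet and lipolysis, the tricarboxylic acid cycle, respiratory complex I, glycolysis, insulin signalling and glucose uptake, slow-fibre genes, fast-fibre genes, atrophy, FoxO and autophagy, amino acid sensing upstream of mTORC1, clock genes, nerve markers and skeletal muscle markers.

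The mitochondrial ribosome held 13 genes on the higher side at an unadjusted p under 0.05, more than any other list, though it was also the longest. Of 63 mitochondrial ribosomal protein genes, 35 were higher in HFD/HFD females, and 20.6% were higher and 4.76% (3 genes) lower at that p, with a median of 0.052 log2. Mrpl47, a protein of the large mitochondrial subunit, read 9.90, 9.96, 10.03 and 9.99 in HFD/HFD females, against 9.63, 8.97, 9.61, 9.16 and 9.33 in chow/HFD females. The groups were separate (0.63 log2, SE 0.14, adjusted p = 0.0990). Mrps11 (0.29 log2), Mrpl12 (0.32 log2) and Mrpl35 (0.34 log2) followed. Within well columns 5 and 7 the list medians were 0.0051 and 0.017, smaller than over all arrays.

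The respiratory chain itself was mixed. Of 32 assembly factors, 17 were higher, and 7 were higher and 2 lower at an unadjusted p under 0.05. Smim20, which helps to assemble cytochrome c oxidase, read 10.08, 10.16, 10.13 and 10.14 in HFD/HFD females, against 9.71, 9.79, 9.65, 9.64 and 9.57 in chow/HFD females, a difference of 0.45 log2 (SE 0.10, adjusted p = 0.0990). These groups did not overlap. Cox20 was higher by 0.32 log2 and Ndufaf2, a complex I assembly factor, differed by -0.50 log2 (SE 0.17). Of 40 subunits of complexes II to V, 7 were higher and 4 lower at that p, with a median of -0.036. Atp5f1e and Atp5f1d, parts of the central stalk of ATP synthase, were higher by 0.25 (SE 0.065) and 0.22 (SE 0.062) without overlap, while Cox6c differed by -0.15. Of 31 complex I subunits, 2 were higher and 4 lower, with Ndufb7 at 0.39 log2 without overlap and Ndufa1 at -0.48 with overlapping groups.

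In the tricarboxylic acid cycle 4 of 18 genes were higher and 1 lower at an unadjusted p under 0.05. Cs, citrate synthase, read 11.74, 11.86, 11.82 and 11.91 in HFD/HFD females, against 11.67, 11.30, 11.60, 11.64 and 11.48 in chow/HFD females. Every HFD/HFD female was above the chow/HFD range (0.30 log2, SE 0.078, adjusted p = 0.130). Suclg1, a subunit of succinyl-CoA ligase, was higher by 0.28 log2 (SE 0.072) without overlap, and Sdhb, the iron-sulphur subunit of succinate dehydrogenase, differed by -0.16 log2. Relative to all genes the list median was above 0 after quantile normalization and -0.055 with arrays as deposited or centred on their medians, so its direction depends on the scaling.

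Fatty acid oxidation, which muscle raises on a fatty diet, had a median near 0 whose direction was not stable. Of 26 genes, 16 were higher and 10 lower, 0 were higher and 1 lower at an unadjusted p under 0.05, and the median was 0.021 log2. That median was -0.15 and -0.091 in well columns 5 and 7, -0.023 with the column as a block, and -0.047 to 0.097 with 1 array left out. The 1 was Acad10, an acyl-CoA dehydrogenase family member (-0.26 log2, SE 0.11). Of 15 fatty acid responsive genes, 0 were past that p in either direction. In the peroxisome 6 of 28 genes were higher and 2 lower. Nudt19, a coenzyme A hydrolase, read 9.28, 9.46, 9.50 and 9.56 in HFD/HFD females, against 9.23, 8.96, 9.19, 9.18 and 9.04 in chow/HFD females, with no overlap (0.33 log2, SE 0.093). Acox3, an oxidase of branched fatty acids, differed by 0.21 log2, and Agps, of ether lipid synthesis, by -0.25.

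Lipid synthesis genes were on the higher side: 11 of 15 were higher, and 4 were higher and 0 lower at an unadjusted p under 0.05, with a median of 0.088 log2. The median was -0.021 in well column 5, 0.15 in column 7 and 0.050 without HFD/HFD replicate 1. The 4 were the desaturases Fads1 (0.32 log2, SE 0.12), Fads2 (0.29, SE 0.12) and Scd (0.62, SE 0.26) and the phosphatidate phosphatase Lpin1 (0.24, SE 0.10). Scd read 8.40, 7.66, 8.38 and 8.40 in HFD/HFD females, against 8.0, 7.51, 7.77, 7.95 and 6.75 in chow/HFD females, and the groups overlapped. In the sterol list of 15 genes, Nsdhl was higher by 0.16 without overlap, Fdft1 by 0.24, and Lss differed by -0.27. Fabp4, the fatty acid carrier of fat cells and capillaries, read 8.83, 8.63, 8.26 and 7.99 in HFD/HFD females, against 8.93, 8.84, 8.77, 9.23 and 8.80 in chow/HFD females (-0.49 log2, SE 0.14). Of 14 fat-cell markers 4 were higher and 10 lower, and their part in the differences of Fabp4 and Scd was not tested.

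In cytosolic translation and protein breakdown the lists leaned the other way or split. Of 55 cytosolic ribosomal protein genes, 6 were higher and 8 lower at an unadjusted p under 0.05, with a median of -0.050. Rpl5 read 11.62, 11.46, 11.60 and 11.32 in HFD/HFD females, against 11.75, 11.77, 11.83, 11.96 and 12.03 in chow/HFD females, with no overlap (-0.37 log2, SE 0.085, adjusted p = 0.0990). Rpl41 (-0.32 log2) was also lower without overlap, and Rps15 (0.37 log2) and Rpl29 (0.35 log2) were higher without overlap. Ribosomal protein genes have many near-identical copies, so their values are uncertain. Of 30 proteasome genes, 10 were higher and 20 lower, and 1 was higher and 6 lower at that p. Psma7 and Psma2, of the core ring, differed by -0.35 and -0.34 log2, and Psmb6 was the higher one at 0.20.

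Stress pathways were mixed. Of 36 unfolded protein response genes, 4 were higher and 4 lower at an unadjusted p under 0.05. Dnajb9, a chaperone of the endoplasmic reticulum, read 9.50, 9.45, 9.30 and 9.25 in HFD/HFD females, against 9.78, 9.63, 9.61, 9.85 and 9.52 in chow/HFD females, without overlap (-0.30 log2, SE 0.080). The transcription factor gene Xbp1 differed by 0.30 log2 (SE 0.12), and Ero1b, an oxidase of the endoplasmic reticulum, by 0.17. Of 22 amino acid response genes and ATF4 targets, 17 were higher, and 4 were higher and 0 lower at that p. They were Chac1, Psph of serine synthesis (0.29 log2), Aldh18a1 of proline synthesis (0.26 log2) and the mitochondrial serine enzyme Shmt2 (0.18 log2). Atf4 itself differed by -0.16 log2 (SE 0.091). Of 36 heat shock chaperones 0 were higher and 2 lower at that p, namely the mitochondrial chaperones Hspe1 (-0.38 log2, SE 0.11) and Hspa9 (-0.20 log2). For both of these the groups overlapped. Probe sets with several symbols are not part of the lists. One such dim probe set, 10831298, carries the heat shock symbols Hspa1b and Hspa1a. It rose by 0.97 log2 without overlap (SE 0.18, adjusted p = 0.0471 over all probe sets).

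Among 32 genes of amino acid sensing upstream of mTORC1, 4 were higher and 2 lower at an unadjusted p under 0.05. Besides Kptn, Lamtor4, of the lysosomal Ragulator scaffold, read 10.51, 10.57, 10.51 and 10.62 in HFD/HFD females, against 10.40, 10.06, 10.17, 10.06 and 10.03 in chow/HFD females, without overlap (0.41 log2, SE 0.097, adjusted p = 0.101). The mTOR inhibitor Deptor differed by 0.37 log2 (SE 0.12) and the GTPase gene Rraga by -0.29. In insulin signalling 3 of 22 genes were higher and 0 lower at that p: the kinase genes Akt1 (0.26 log2, SE 0.073) and Pdpk1 (0.21 log2) and the adaptor gene Grb10 (0.24 log2). Akt1 was separate, with 10.53, 10.67, 10.65 and 10.64 in HFD/HFD females against 10.16, 10.39, 10.42, 10.43 and 10.39 in chow/HFD females. The list median was nevertheless -0.026.

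Chromatin modifiers, which write, read and erase marks on histones and DNA, leaned lower. Of 43 genes, 15 were higher and 28 lower, and 0 were higher and 8 lower at an unadjusted p under 0.05 (0% and 18.6%), with a median of -0.078. Kdm2a, a histone H3 lysine demethylase, read 8.73, 8.71, 8.60 and 8.67 in HFD/HFD females, against 8.88, 8.97, 8.94, 9.02 and 8.98 in chow/HFD females, without overlap (-0.28 log2, SE 0.066, adjusted p = 0.101). The histone deacetylase gene Hdac2 was also lower without overlap (-0.22 log2, SE 0.069), and the acetyltransferase gene Kat2a (-0.20) and Hdac9 (-0.18) were lower with overlap. The mean of the list, each gene centred over all arrays, lay between -0.059 and -0.015 in HFD/HFD females and between 0.016 and 0.065 in chow/HFD females. In chow-fed females the list median was -0.019. Between HFD/HFD and chow/HFD females it was -0.021 in well column 5 and -0.086 in column 7. Relative to all genes the list median was -0.079 after quantile normalization and -0.023 with arrays as deposited or centred, so the size of the lean depends on the scaling. Of 5 cold-inducible and RNA-binding genes 0 were higher, and 3 were lower at that p: the splicing regulators Rbm5 (-0.24 log2), Hnrnpdl (-0.28) and Srsf5 (-0.30). The cold-inducible Cirbp differed by only -0.10 log2 (SE 0.091), with overlapping groups.

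The contractile apparatus had few members past the unadjusted threshold. Of 16 slow-fibre genes 8 were higher and 8 lower, 0 were past an unadjusted p of 0.05, and the median was 0.015. It ran from -0.19 without HFD/HFD replicate 2 to 0.31 without HFD/HFD replicate 4, and was -0.071 and -0.92 in well columns 5 and 7. Between HFD/chow and chow/chow females it was -0.62, and 0 of the 16 genes had an unadjusted interaction p under 0.05. Of 12 fast-fibre genes only Tpm1 was past that p (-0.17 log2). Among 18 genes of excitation-contraction coupling, 0 were higher and 2 lower: Stac3, which holds the calcium channel at the triad, without overlap (-0.19 log2, SE 0.060), and Trdn, the triadin gene (-0.16). Of 13 dystrophin complex genes, Sntb1 was higher and Sgcd, a sarcoglycan, lower without overlap (-0.21 log2, SE 0.064). Of 14 cell cycle genes 12 were higher, led by the mitotic kinase gene Aurka, at 5.73, 5.76, 5.80 and 5.83 in HFD/HFD females against 5.30, 5.43, 5.32, 5.35 and 5.52 in chow/HFD females (0.39 log2, SE 0.092, adjusted p = 0.0994). Both groups were dim for Aurka, though separate. With arrays as deposited or centred, 8 of the 14 cell cycle genes lay above the median of all genes.

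Markers of other cell types were compared for the cells a muscle sample can hold. Of 12 tendon markers 10 were higher, with a median of 0.26 log2, but only Mkx was past an unadjusted p of 0.05. The median was 0.13 without chow/HFD replicate 2, -0.13 and 0.47 in well columns 5 and 7, and 0.14 with the column as a block. The mean of that list ran from -0.073 to 0.080 in HFD/HFD females and from -0.657 to 0.359 in chow/HFD females, so the chow/HFD females alone spanned the whole range. Of 25 leukocyte markers 15 were higher, with the complement gene C1qb (0.29 log2, without overlap) and Cd4 (0.36 log2) past that p. Of 17 endothelial markers 13 were higher, among them Emcn (0.31 log2). The median of that list was 0.074, but -0.12 and 0.011 in well columns 5 and 7, and 0.035 with the column as a block. Of 36 fibroblast and matrix genes 1 was higher and 1 lower at that p, Tgfb1 (0.17 log2) and Col4a2 (-0.29 log2). Vessel wall, nerve and red blood cell lists had 0 members past that p. The part of these cell types in the other differences was not tested.

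**Figure D5:**
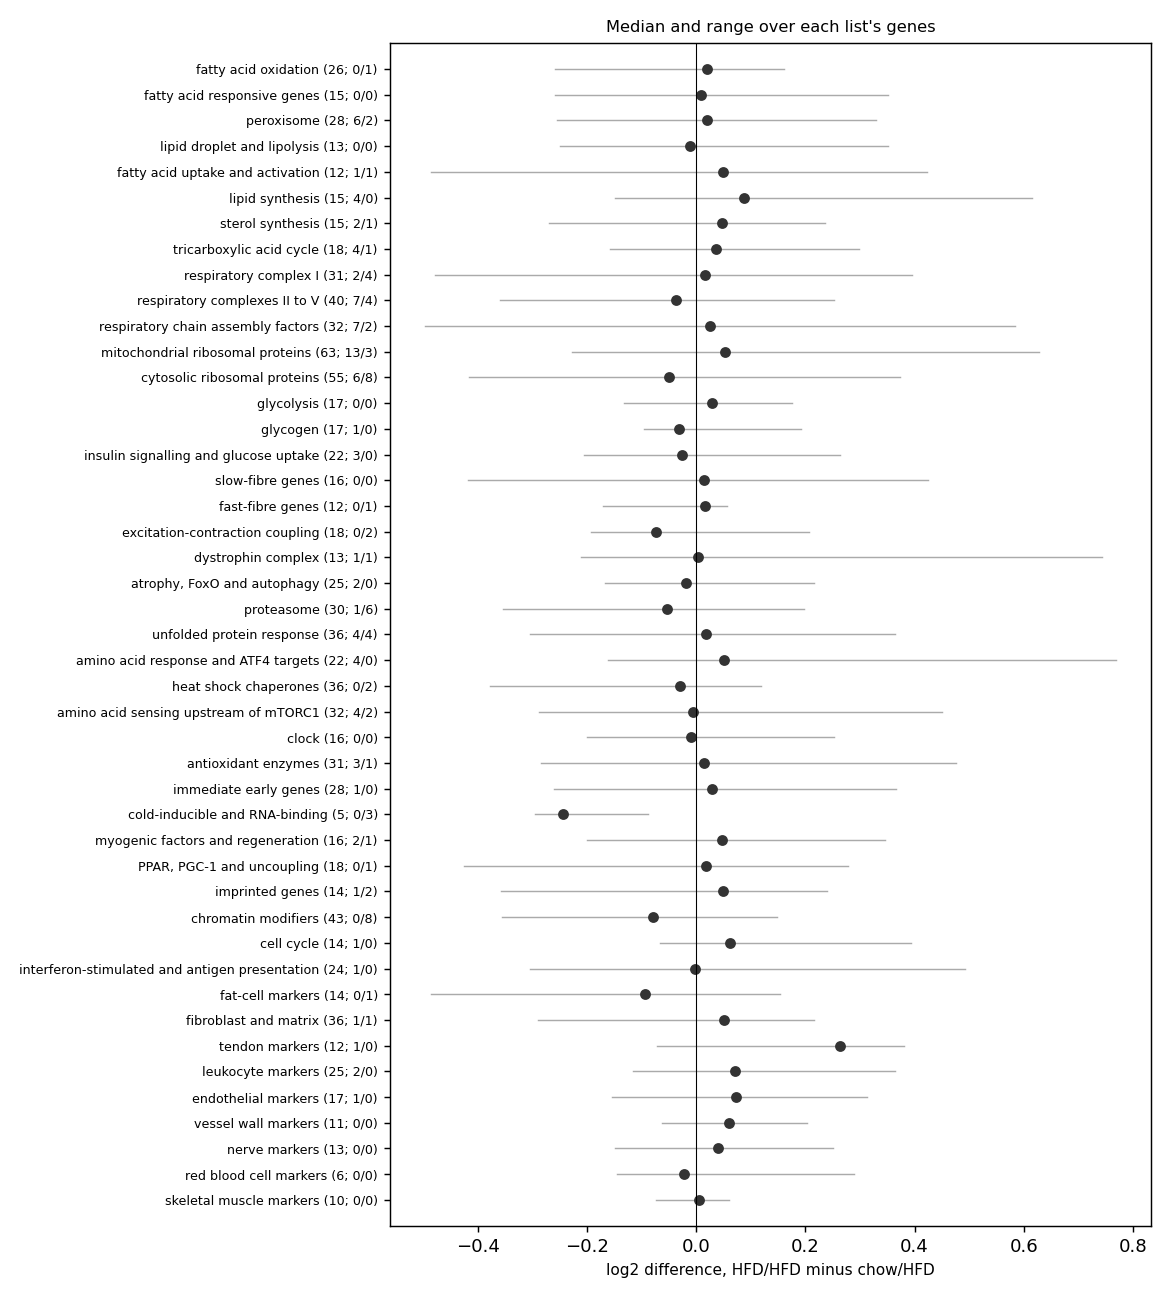
Median (point) and range (line) of the log2 difference, HFD/HFD minus chow/HFD (horizontal axis), over the measured genes of each of 45 lists. Beside each name stand the number of genes measured and the numbers higher/lower at an unadjusted p under 0.05. Most medians lie near 0, with tendon markers at 0.26 and the 5 cold-inducible and RNA-binding genes at -0.24 farthest from it.

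A panel of 14 genes known from muscle on a fatty diet was followed whatever its result, and none passed. Pdk4, the kinase that shuts pyruvate out of oxidation, averaged 12.33 ± 0.14 in HFD/HFD females (SD, n = 4) and 12.27 ± 0.32 in chow/HFD females (SD, n = 5). The difference was 0.061 log2 (SE 0.14), less than the spread between females. The mitochondrial carrier gene Ucp3 differed by 0.0024 (SE 0.24) and the carnitine transferase gene Cpt1b by 0.0075 (SE 0.057). Angptl4, an inhibitor of lipoprotein lipase, differed by -0.13 (SE 0.41), the droplet protein gene Plin5 by 0.14 (SE 0.23) and the slow myosin gene Myh7 by -0.11 (SE 0.42). Slc2a4, the insulin-responsive glucose transporter, read 11.19, 10.97, 10.77 and 10.76 in HFD/HFD females, against 11.08, 11.07, 11.37, 10.83 and 11.11 in chow/HFD females, a difference of -0.17 (SE 0.096). These overlapped, as did the values of Fbxo32, a ubiquitin ligase of atrophy, which differed by 0.22 (SE 0.10). Adipoq differed by -0.26 (SE 0.27), Hspa5 by -0.030 (SE 0.080), Ddit3 by -0.069 (SE 0.12) and Pck1 by 0.0088 (SE 0.082).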

How the data were processed

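Per the labels' protocols, 200 ng of total EDL RNA was converted to sense-strand cDNA, biotin-labelled and read on 1 Affymetrix array per female. The authors deposited a linear intensity for 20917 probe sets on 18 arrays, made with Affymetrix Expression Console and PLIER per the submitters' processing notes, with versions, settings and genome build not given in the sources used here. Array values carry no depth, so precision rests on how many arrays there are.

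Intensities were taken as log2(intensity + 16), because PLIER values near 0 have no stable log. Array medians differed by 0.341 log2, above the limit of 0.1, so quantile normalization was used. Of the probe sets 18197 had 1 symbol in the probe table supplied, 960 several and 1760 none. The probe set of highest mean stood for each of 16856 symbols, and those above the 25th percentile (5.28 log2) gave 12642 genes, of which 12555 were found in the RefSeq gene table. All 18 arrays entered 1 model of 4 group means (lmFit and eBayes of limma 3.58.1, R 4.3.3), with two-sided tests and Benjamini-Hochberg adjustment at 0.05 over all genes within each of 3 comparisons: the grandpaternal diet at each own diet, and their interaction. The fit was tested on simulated data. Within groups, 32 pairs of arrays were checked for copies: their log2 differences had an SD of 0.187 or more, and no pair shared over 0.0908% of its values.

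Named genes are the 24 of smallest p, the 5 largest differences in each direction, a panel of 14 genes, the 5 of smallest p for the interaction and, in each list, 2 to 4 of smallest p. Slc17a5 and the probe sets of the whole table are named because they passed a test. The members, the 45 lists (9 of cell type markers) and the rules were chosen with earlier results of these data known. Other settings were the table as deposited, centring on medians, offsets of 1 and 64, other filters, all probe sets, trended robust eBayes, array weights, the 2 groups alone, the well column as a block, a covariate of deposited array medians, and arrays left out. Values within well columns, the fit of all 20917 probe sets, the block of neighbouring animal numbers and the count at an adjusted p under 0.10 were added after the data were seen.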

Additional observations from a re-analysis of the deposited data

Results flagged for a closer look

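In 102 groups of named genes the values were checked for an array far from the others of its group, and 9 were found. How many chance alone would give among genes chosen in this way was not tested. On the HFD/HFD side, replicate 4 stood apart in 4 genes. It read 7.86 for Fam111a, where the other HFD/HFD females read 4.36 to 4.54, and 9.53 for Myh7, where the others read 11.09 to 11.32. It read 10.05 for Taf9, against 9.87 to 9.89 in the others, and 9.60 for Wdr12, against 9.71 to 9.72. On the chow/HFD side, replicate 3 read 6.82 for Rab3b (others 4.73 to 5.07), 8.23 for Fam217a (others 7.96 to 8.02) and 10.08 for Ucp3 (others 11.22 to 11.43). Chow/HFD replicate 1 read 7.60 for Dpp3 (others 7.16 to 7.28), and chow/HFD replicate 2 read 5.44 for Lgi3 (others 7.49 to 7.97).

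A signal above that of chow/HFD females also appeared in probe sets outside the gene-level comparison, those with several symbols or no gene entry. Probe sets without a gene entry rose by 4.03 (10747775), 1.62 (10934517) and 1.07 (10705870) log2 in HFD/HFD females. Among probe sets with several symbols, 10831298 rose by 0.97 log2, while 10767692 had a difference of -0.44 and 10920994 one of -0.43.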

How the results depend on the processing

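No paired analysis was possible between the grandpaternal groups because their titles share no animal numbers. A random replicate block of neighbouring animal numbers within each lineage (8 pairs, 7 with a correlation over 0.1), added after the data were seen, left the calls at 0, 1 and 0 for HFD-fed females, chow-fed females and the interaction, and the interaction had 1127 genes at an unadjusted p under 0.05, against 863 without the block. The 0 genes called between HFD/HFD and chow/HFD females became 1689 with the table as deposited, 1 with an offset of 1, 10 with every probe set of 1 symbol and 17 with all probe sets, and 0 to 56 with 1 array left out. The 56 (37 higher, 19 lower) came without HFD/HFD replicate 1, and the other 8 arrays left out gave 0. The table as deposited gives up the common level of the arrays. In the 20 settings that tested all 24 genes of smallest p, all kept their direction, as did the 21 of them left by a filter at the 50th percentile. Of the 24, 16 passed as deposited and 16 without HFD/HFD replicate 1. The 1 gene called in chow-fed females was 0 as deposited, with offsets of 1 and 64, with the well column as a block and with the array median as a covariate, 2 with those groups alone, and 0 to 2 with arrays left out, 2 without HFD/chow replicate 1. The interaction count was 1 as deposited. Over all 20917 probe sets, the 17 calls became 1626 as deposited, 87 centred, 11 with an offset of 1, 40 with trended robust eBayes, 38 with array weights, 34 with the well column block, 1 with the median covariate (10747775), 3 without the 2 arrays of lowest median, and 3 to 87 with an array left out, 87 without HFD/HFD replicate 1 and 3 without HFD/HFD replicate 3. All 17 kept their direction throughout. In the 17 and in most of the 24 the groups do not overlap, so leaving an array out could not turn the direction. Under the median covariate the Klf9 and Slain2 probe sets had adjusted p-values of 0.118 and 0.368.

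Panel genes that did not pass changed sign in places. As deposited, the differences were Angptl4 0.098, Myh7 0.085, Slc2a4 0.0056, Hspa5 0.15, Ddit3 0.16, Atf4 0.034 and, outside the panel, Slc17a5 0.17. Centred, they were Pdk4 -0.094, Cpt1b -0.013 and Pck1 -0.079. With the well column block they were Ucp3 -0.079, Cpt1b -0.021 and Plin5 -0.027. With array weights they were Angptl4 0.030 and Pck1 -0.014. With the median covariate they were Angptl4 0.78, Cpt1b -0.022, Myh7 0.58, Hspa5 0.080 and Ddit3 0.021. Without the 2 arrays of lowest median they were Angptl4 0.41, Cpt1b -0.011, Plin5 -0.0016 and Hspa5 0.0090. With 1 array left out, Pdk4 ran from -0.078 to 0.12, Ucp3 from -0.25 to 0.091, Angptl4 from -0.60 to 0.11, Cpt1b from -0.028 to 0.048, Plin5 from -0.10 to 0.32, Myh7 from -0.37 to 0.31, Adipoq from -0.44 to 0.012, Ddit3 from -0.18 to 0.011 and Pck1 from -0.065 to 0.045. The causes were not tested. List medians moved by more than 1 SD of the list mean in 39 of 45 lists as deposited and in 10 when centred.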

Other observations

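In lists not described above, the antioxidant enzymes had 19 of 31 members higher, with 3 higher and 1 lower at an unadjusted p under 0.05. Hmox2, the constitutive haem oxygenase, read 8.60, 9.01, 8.91 and 8.85 in HFD/HFD females, against 8.24, 8.52, 8.36, 8.57 and 8.14 in chow/HFD females. The groups did not overlap, and the difference was 0.48 log2 (SE 0.13, adjusted p = 0.141). Gss, of glutathione synthesis, differed by 0.23 log2, and the peroxiredoxin genes Prdx1 and Prdx5 by 0.22 and -0.27.

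Of 14 imprinted genes 9 were higher, with 1 higher and 2 lower at that p: Grb10 (0.24 log2), the non-coding H19 (-0.36 log2, SE 0.16) and Plagl1 (-0.23 log2, SE 0.11). H19 read 11.66, 11.96, 11.86 and 11.06 in HFD/HFD females, against 11.92, 12.00, 12.24, 12.14 and 11.65 in chow/HFD females, and the groups overlapped. Among 18 genes of PPAR, PGC-1 and uncoupling, Tfam, the mitochondrial transcription factor, differed by -0.24 log2 (SE 0.083), and it was the only one past that p. Of 16 clock genes and 17 glycolytic genes, 0 were past it.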
